A study of Homo sapiens with 12 samples.

Results

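The E2F and RB family was followed here as 10 genes: the E2F factors E2F1, E2F2, E2F3, E2F4, E2F7 and E2F8, the pocket proteins RB1, RBL1 and RBL2, and MYBL2. The genes were picked by symbol as members of the family, and all 10 were found among the 39368 symbols of both count tables. They were chosen with earlier results of these data known, so their shares beside those of all genes are no independent evidence. E2F factors bind the promoters of genes for DNA replication and the cell cycle. The pocket proteins hold them in check in resting cells, with RB1 mainly on the activating E2Fs and RBL1 (p107) and RBL2 (p130) mainly on E2F4 in the DREAM complex, and cyclin-dependent kinases release this brake by phosphorylating the pocket proteins. MYBL2 (B-MYB) joins the MuvB core of the same complex later in the cycle to drive mitotic genes, while E2F7 and E2F8 are atypical repressors that are themselves induced in S phase. In HPV-negative head and neck squamous carcinoma, loss of CDKN2A and gain of CCND1 are common routes to a released RB pathway.

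RNA-seq was performed on the tongue carcinoma lines CAL27 and HSC3, both HPV-negative, in 4 groups of 3 libraries. All cells carried tet-MUC1shRNA, a doxycycline-inducible short hairpin RNA against MUC1 in the pLKO-tet-puro vector, and were treated for 7 days with 0.1% DMSO as vehicle or with 500 ng/ml doxycycline (DOX). No DOX library of cells with a control hairpin was analysed here, so MUC1 silencing cannot be told apart from effects of DOX or of the hairpin itself. CAL27 cells grew in DMEM and HSC3 cells in MEM. Line, medium and count table therefore cannot be told apart, at baseline or in differences of the DOX response. RNA came from cells cultured in triplicate. The p-values measure the spread between these cultures of a single transduced population per line.

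Library totals were 92866845 to 126328662 counts in CAL27 and 89730914 to 169065103 in HSC3. One molecule was counted an estimated 1.97 to 2.41 times in CAL27 libraries, 3.22 to 5.90 times in HSC3 vehicle libraries and 6.77 to 14.9 times in HSC3 DOX libraries, with HSC3 DOX 1 the highest, so the number of molecules limits the precision of low genes in HSC3 more than the counts do. HSC3 DOX 1 also stood farthest from its replicates, and results that turn on it are given without it. In HSC3, every DOX library had more counts per molecule than every vehicle library. DOX therefore cannot be told apart from this difference between libraries, in the HSC3 response or in its difference from CAL27. The targeted gene fell in both lines. MUC1 was at 53.1 to 58.4 CPM with vehicle and 2.76 to 3.25 CPM with DOX in CAL27, an 18.5-fold decrease. In HSC3 it was at 1.64 to 1.97 CPM with vehicle and 0.13 to 0.31 CPM with DOX, a 7.38-fold decrease. All 10 squamous epithelial markers (KRT5, KRT14, TP63 and others) were above 1 CPM in every group, whereas fibroblast, leukocyte and endothelial markers summed to at most 15.3 CPM each in any library. The squamous markers moved with DOX: their sum went from 7673–8002 to 3737–3923 CPM in CAL27 and from 7392–8105 to 3957–4420 CPM in HSC3. Of the 10 markers, 8 were called lower and 1 higher in CAL27, and 7 lower and 1 higher in HSC3. Their part in the results on the E2F and RB family was not tested. CPM is the count of a gene scaled to 1e+06 counts of its library, here normalized by the trimmed mean of M-values (TMM) over all 12 libraries. Fewer cells in a phase of the cycle and less RNA per cell cannot be told apart in such bulk samples.

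Promoter windows of the members were searched for letter forms of the element known to be bound by E2Fs. The RefSeq promoter table used here (GRCh38.p14) gave a window from 250 bases before to 50 bases after a start site for 9 of the 10 genes, all but E2F8. The windows were searched on both strands for 4 E2F words (TTTCCCGC, TTTCGCGC, TTTGCCGC and TTTGGCGC), matches of which could overlap each other only in part. E2F1, E2F2, E2F3 and RBL1 held at least 1. Counted by window, 3.31% of all 35116 windows did, and counted by gene, 1090 of 27305 genes did. The 100 bases upstream of these 4 starts are shown 5′ to 3′ on the gene's strand because they carry the words. Capitals mark an E2F word or its reverse complement.
E2F1 (chr20:33686386-33686485, minus strand): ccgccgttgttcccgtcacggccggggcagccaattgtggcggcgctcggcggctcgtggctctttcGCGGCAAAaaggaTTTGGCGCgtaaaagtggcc
E2F2 (chr1:23531234-23531333, minus strand): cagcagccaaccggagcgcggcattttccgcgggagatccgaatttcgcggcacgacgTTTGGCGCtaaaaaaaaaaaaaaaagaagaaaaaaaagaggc
E2F3 (chr6:20401779-20401878, plus strand): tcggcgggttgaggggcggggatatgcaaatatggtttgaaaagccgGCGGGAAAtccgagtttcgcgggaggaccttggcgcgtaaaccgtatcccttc
RBL1 (chr20:37095998-37096097, minus strand): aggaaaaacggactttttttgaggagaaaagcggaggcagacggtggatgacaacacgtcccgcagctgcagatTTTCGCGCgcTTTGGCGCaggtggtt
E2F1 and RBL1 each held 2 words, at -33 and -20 in E2F1 and at -26 and -16 in RBL1, counted from the start site to the word's first base. The single words of E2F2 and E2F3 began at -42 and -53. A CHR word (TTTGAA, a letter form of the element that MuvB reads) was found in 15.2% of all windows, and among the members at -65 in E2F3 and at 24 in RBL2. E2F3 and RBL2 each had a further window, at the starts 20403614 and 53435619, which held no E2F or CHR word. Counts are per gene, so transcripts from the different starts of E2F3 are pooled in its levels. The window of RB1 lies at a start inside the gene and not at its first exon. A match is a description of letters and not of binding.

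Before DOX, the 2 lines held the family in different proportions. CAL27 was richer in MYBL2, E2F1, E2F2 and E2F8, whereas HSC3 was richer in E2F7, E2F3 and RB1. All 10 genes passed the filter on low counts in every comparison. In edgeR's quasi-likelihood test with Benjamini-Hochberg adjustment at 0.05, 4 members were higher and 4 lower in HSC3, among 34.7% higher and 37.1% lower of all 19410 genes tested, so the count of 8 is near the background of these 2 cell lines. With a fold above 2 also required, 4 members were called against 34.7% of genes. The ranges of vehicle libraries did not overlap between lines for 7 members, against 76.7% of all genes.

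The activating E2Fs, which switch on replication genes, differed between the lines in which member dominates. E2F1 (ENSG00000101412, chr20:33675477-33686385, minus strand) was at 20.5, 21.4 and 19.7 CPM in CAL27 vehicle libraries and at 16.6, 17.4 and 14.3 CPM in HSC3 vehicle libraries. Every HSC3 value was below every CAL27 value, a log2 difference of -0.35 ± 0.079 (SE, edgeR adjusted p = 0.0014). E2F3 (chr6:20401879-20493714, plus strand) went the other way, at 33.5, 35.9 and 34.8 CPM in CAL27 and 68.7, 68.9 and 73.6 CPM in HSC3, 2.03-fold higher in HSC3 (edgeR adjusted p = 8.31e-10). E2F2 (chr1:23506438-23531233, minus strand) was the lowest member in both lines, at 1.57 to 2.10 CPM in CAL27 and 0.34 to 0.88 CPM in HSC3, 2.96-fold lower in HSC3 (edgeR adjusted p = 4.75e-04). Divided by the counts per molecule, the E2F2 counts of the HSC3 vehicle libraries stand for only 17.8, 22.3 and 6.77 molecules. Per kilobase of exon, where levels can be set side by side between genes, E2F3 made up 45.6% ± 0.97 (SD, n = 3) of the summed level of E2F1, E2F2 and E2F3 in CAL27 vehicle libraries and 69.0% ± 3.12 in HSC3, while E2F1 made up 52.0% ± 1.07 and 30.4% ± 2.86.

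The 2 atypical repressors moved apart between the lines. E2F7 (chr12:77021248-77065569, minus strand) was at 75.9, 72.9 and 71.3 CPM in CAL27 and 305, 271 and 320 CPM in HSC3, with no overlap, and was 4.08-fold higher in HSC3 (log2 difference 2.03 ± 0.058, edgeR adjusted p = 4.50e-12). This was the largest baseline difference in the family. E2F8 (chr11:19224063-19241620, minus strand), its close relative, was at 39.6, 35.6 and 34.7 CPM in CAL27 and 24.4, 25.9 and 24.8 CPM in HSC3, 1.46-fold lower (edgeR adjusted p = 3.25e-06).

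Of the pocket proteins, RB1 (chr13:48303744-48599436, plus strand) was at 234, 217 and 226 CPM in CAL27 and 294, 302 and 333 CPM in HSC3, 1.38-fold higher in HSC3 (edgeR adjusted p = 1.92e-06). RBL1 (chr20:36996349-37095997, minus strand) was at 112, 106 and 106 CPM against 111, 119 and 129 CPM. The groups overlapped and the call, a log2 difference of 0.15 (edgeR adjusted p = 0.021), was lost on leaving out CAL27 vehicle 2 or 3 or HSC3 vehicle 2 or 3, with differences of 0.10 to 0.15 and adjusted p = 0.051 to 0.10. RBL2 (chr16:53433977-53491648, plus strand) was at 64.8 to 65.9 CPM in CAL27 and 63.2 to 69.5 CPM in HSC3. E2F4 (chr16:67192155-67198918, plus strand), the repressor E2F that works with RBL1 and RBL2, was at 53.5 to 58.6 and 55.1 to 61.6 CPM. Neither passed the test, with 95% intervals of the log2 difference of -0.07 to 0.13 for RBL2 and -0.04 to 0.19 for E2F4. MYBL2 (chr20:43667019-43716495, plus strand) was at 121, 116 and 111 CPM in CAL27 and 48.8, 55.7 and 48.6 CPM in HSC3, 2.27-fold lower in HSC3 (edgeR adjusted p = 6.74e-10). Scaling by library totals in place of TMM moved the median of all genes by -0.27 in this comparison, and the differences of E2F4, RBL1 and RBL2 then turned negative, to -0.20, -0.12 and -0.24. The other 7 kept their sign.

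**Figure D1:**
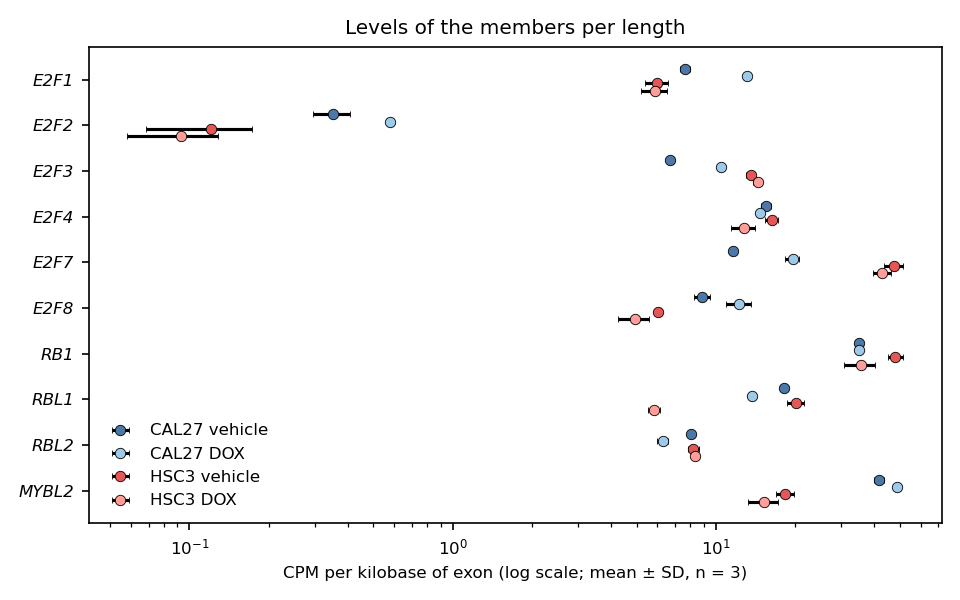
Mean level of each gene in CPM per kilobase of exon on a log axis, with the SD over 3 libraries, for the 4 groups. MYBL2 led in both CAL27 groups at 41.8 and 49.0, E2F7 and RB1 led in both HSC3 groups, and E2F2 was the lowest gene in every group.

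Per kilobase of exon, the order of levels in CAL27 vehicle libraries was MYBL2 at 41.8, RB1 at 35.0, RBL1 at 18.1, E2F4 at 15.5, E2F7 at 11.7, E2F8 at 8.86, RBL2 at 8.06, E2F1 at 7.64, E2F3 at 6.69 and E2F2 at 0.35 CPM per kilobase. No neighbours in this order overlapped in their ranges. In HSC3 vehicle libraries RB1 at 48.1 and E2F7 at 47.5 CPM per kilobase overlapped at the top. RBL1 at 20.1 and MYBL2 at 18.4 overlapped next, followed by E2F4 at 16.3, E2F3 at 13.6, RBL2 at 8.21, the overlapping pair of E2F8 at 6.05 and E2F1 at 5.98, and E2F2 at 0.12. With DOX, E2F7 moved up to the third place in CAL27, at 19.6, and RBL1 moved down to the fifth, at 13.8, overlapping E2F1 at 13.1, whose range overlapped that of E2F8 at 12.3. In HSC3 with DOX, RBL1 dropped by 5 places to the eighth, at 5.85 CPM per kilobase, overlapping E2F1 at 5.86 and E2F8 at 4.91. Lengths come from GENCODE v44 and assume that all exons of a gene were counted.

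In CAL27 cells, DOX raised the activating and the atypical E2Fs together with MYBL2, and lowered RBL1 and RBL2. In the same test, 6 of 10 members rose and 2 fell, among 22.6% higher and 21.8% lower of all 19239 genes. None passed the added fold of 2, which 6.42% of genes did. The median log2 fold change was 0.35 for the members and -0.0052 for all genes. The DOX and vehicle libraries did not overlap for 8 members, against 51.8% of genes.

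E2F1 went from 20.5, 21.4 and 19.7 CPM with vehicle to 35.2, 34.2 and 36.7 CPM with DOX in CAL27, 1.72-fold higher (log2 fold change 0.78 ± 0.053 SE, edgeR adjusted p = 2.54e-10). E2F3 went from 33.5, 35.9 and 34.8 to 56.4, 54.1 and 53.0 CPM, 1.57-fold higher (edgeR adjusted p = 5.83e-10). E2F2 went from 2.10, 1.57 and 2.10 to 3.24, 3.09 and 3.15 CPM, 1.63-fold higher (edgeR adjusted p = 1.83e-04). All 3 activators thus had every DOX library above every vehicle library. Their summed level per kilobase went from 14.7 ± 0.43 to 24.2 ± 0.46 CPM per kilobase, with E2F1 at 52.0% and 54.3% of the sum. The pseudogene copies E2F3P1 and E2F3P2 held at most 27 and 16 counts in any library, against at least 3891 for E2F3, and how reads shared by such copies were counted is not given in the sources used here. The rise of E2F2 rests on the spread within CAL27: in a fit that shared the spread over all 12 libraries its adjusted p was 0.11.

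E2F7 rose 1.67-fold in CAL27, from 75.9, 72.9 and 71.3 to 119, 119 and 132 CPM (log2 fold change 0.74 ± 0.045, edgeR adjusted p = 5.51e-11). E2F8 rose 1.39-fold, from 39.6, 35.6 and 34.7 to 47.8, 47.4 and 57.2 CPM (edgeR adjusted p = 1.56e-04). Both repressors thus rose beside the activators, and neither overlapped its vehicle libraries. MYBL2 went from 121, 116 and 111 to 138, 133 and 136 CPM, a rise of 1.17-fold (edgeR adjusted p = 6.94e-05), which also did not pass with the spread shared over 12 libraries (adjusted p = 0.053). E2F4 stayed between 51.8 and 58.6 CPM in all 6 libraries, with a log2 fold change of -0.074 and a 95% interval of -0.17 to 0.017.

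Among the pocket proteins of CAL27, RBL1 fell from 112, 106 and 106 to 80.7, 80.6 and 84.8 CPM, 1.32-fold (log2 fold change -0.40 ± 0.040, edgeR adjusted p = 8.34e-08). RBL2 fell from 65.3, 64.8 and 65.9 to 53.8, 50.4 and 49.1 CPM, 1.28-fold (edgeR adjusted p = 7.56e-07). RB1 was at 234, 217 and 226 CPM with vehicle and 229, 217 and 230 CPM with DOX. The RB1 groups overlapped, with a log2 fold change of -0.0032 and a 95% interval of -0.08 to 0.08. Of the exons of RBL2, 16.4% lie opposite other genes (AKTIP among them) and 3.58% of those of RBL1 do. The library kit marks strand, but whether the counting used it is not given in the sources used here.

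**Figure D2:**
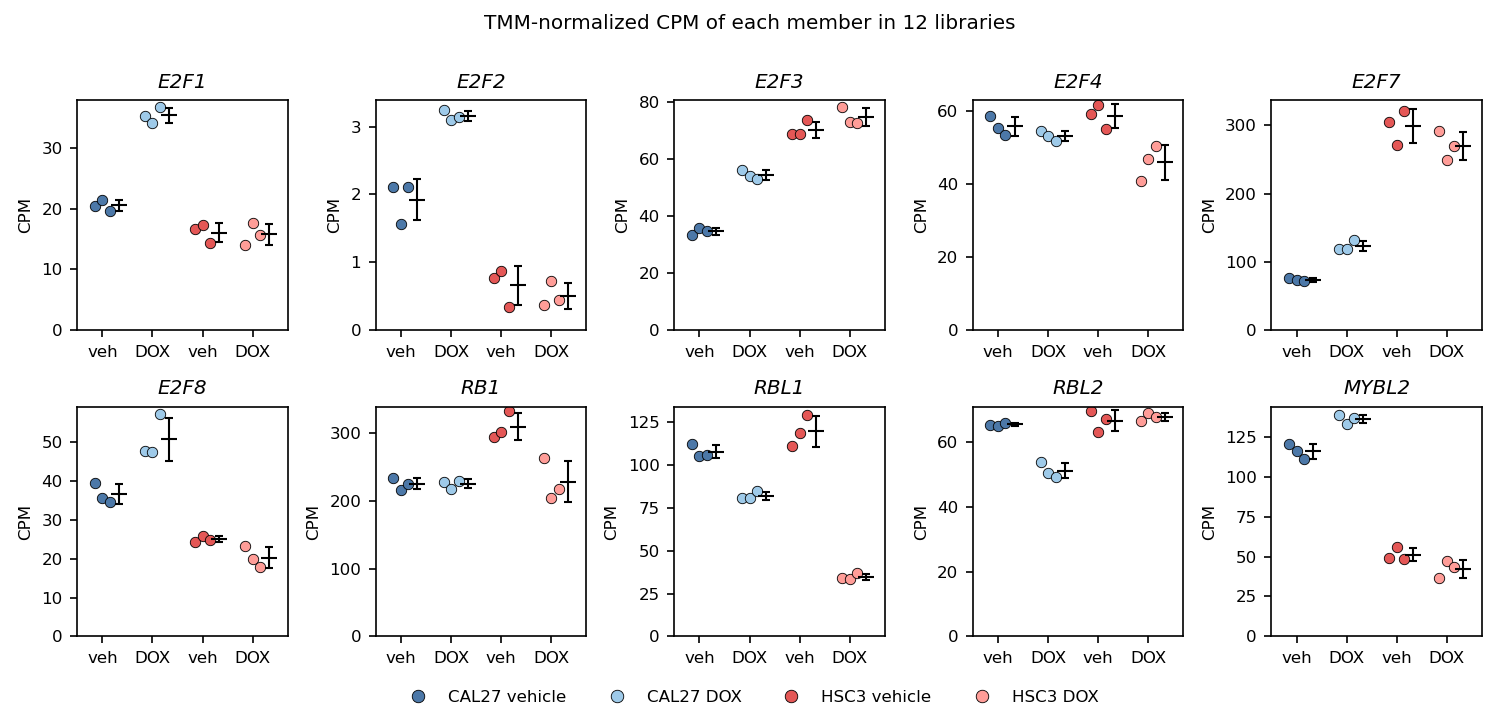
TMM-normalized CPM of each gene in all 12 libraries, with the mean and SD of each group of 3 beside its points and every axis starting at 0. In CAL27, E2F1, E2F2, E2F3, E2F7, E2F8 and MYBL2 sit higher with DOX and RBL1 and RBL2 lower; in HSC3, RBL1 at 33.4 to 37.0 CPM lies far below its vehicle range of 111 to 129 CPM.

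In HSC3 cells, no member rose. RBL1 fell by far more than any other member, RB1 and E2F4 fell by less, and the other 7 did not pass the test. Against this, 13.0% of all 18021 genes were higher and 15.4% lower. RBL1 alone passed the fold of 2, which 5.98% of genes did. The median log2 fold change was -0.29 for the members and -0.0097 for all genes. Groups did not overlap for 5 members, against 42.6% of genes.

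RBL1 went from 111, 119 and 129 CPM with vehicle to 34.1, 33.4 and 37.0 CPM with DOX in HSC3, 3.45-fold lower (log2 fold change -1.79 ± 0.080, edgeR adjusted p = 1.65e-07). The lowest vehicle library lay at about 3 times the highest DOX library. The change remained between -1.84 and -1.72 over 13 alternative settings and left-out libraries, with a highest adjusted p of 8.40e-06. RB1 went from 294, 302 and 333 to 263, 205 and 218 CPM, 1.36-fold lower (log2 fold change -0.44 ± 0.089, edgeR adjusted p = 0.0033), with HSC3 DOX 1 the closest to the vehicle range. RBL2 was at 69.5, 63.2 and 67.0 CPM with vehicle and 66.5, 68.9 and 67.5 CPM with DOX, fully within the vehicle range, and its 95% interval was -0.13 to 0.17.

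**Figure D3:**
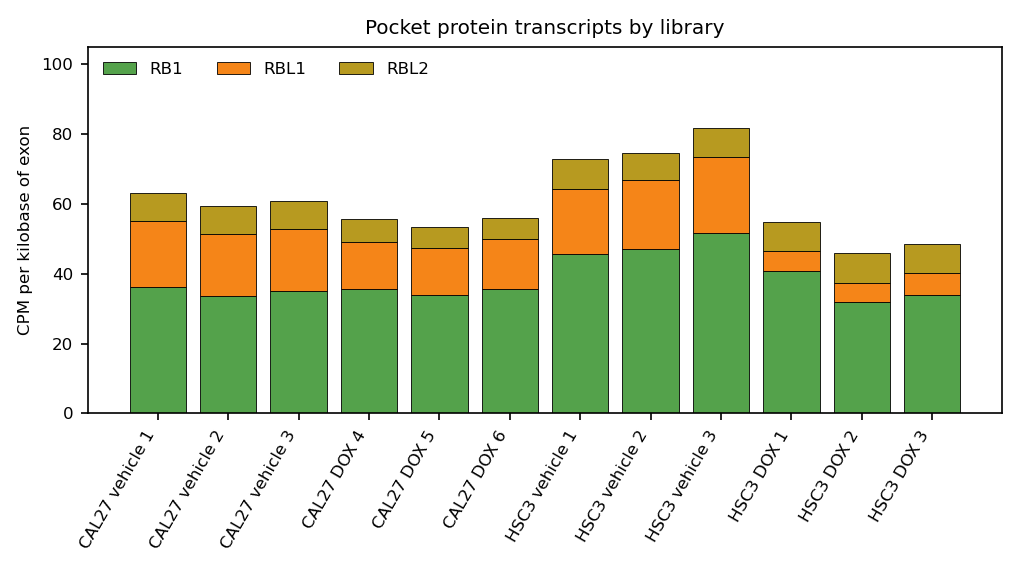
Level of RB1, RBL1 and RBL2 in CPM per kilobase of exon, stacked for each of the 12 libraries. The RBL1 segment shrinks with DOX from 18.1 to 13.8 in CAL27 and from 20.1 to 5.85 in HSC3, while RB1 passed the test in HSC3 and not in CAL27.

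The make-up of the pocket family shifted with these changes. Per kilobase, RBL1 made up 29.6% ± 0.37 (SD, n = 3) of the 3 pocket protein transcripts with vehicle and 25.0% ± 0.60 with DOX in CAL27, and 26.3% ± 0.62 and 11.8% ± 1.23 in HSC3. RB1 went from 57.2% to 63.6% in CAL27 and from 62.9% to 71.3% in HSC3. RBL2 went from 13.2% to 11.4% in CAL27 but from 10.8% to 16.9% in HSC3, where RBL1 passed from above RBL2 to below it in every library. The summed level went from 61.2 ± 1.90 to 55.1 ± 1.34 CPM per kilobase in CAL27 and from 76.4 ± 4.61 to 49.7 ± 4.57 in HSC3. These shares rest on RNA and not on protein.

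E2F4 went from 59.1, 61.6 and 55.1 to 40.8, 46.9 and 50.4 CPM in HSC3, 1.28-fold lower (log2 fold change -0.35 ± 0.092, edgeR adjusted p = 0.014). Every DOX library was below every vehicle library, but the call was lost without HSC3 vehicle 1 (-0.34, edgeR adjusted p = 0.064) or vehicle 2 (-0.32, edgeR adjusted p = 0.076). The activating E2Fs of HSC3 overlapped between treatments. E2F1 was at 16.6, 17.4 and 14.3 CPM with vehicle and 14.1, 17.6 and 15.6 CPM with DOX (log2 fold change -0.030, 95% interval -0.30 to 0.24). E2F3 was at 68.7 to 73.6 CPM with vehicle and 72.7 to 78.4 CPM with DOX (0.082, 95% interval -0.07 to 0.23). For E2F2, at 0.34 to 0.88 and 0.36 to 0.73 CPM, the interval of -1.43 to 0.70 leaves room for large changes in either direction that these few molecules could not show (3.63, 14.5 and 5.72 molecules in the DOX libraries).

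E2F7, at 271 to 320 CPM with vehicle and 250 to 291 CPM with DOX, had a log2 fold change of -0.15 in HSC3 (edgeR adjusted p = 0.19). E2F8 was at 24.4, 25.9 and 24.8 CPM with vehicle and 23.3, 19.9 and 17.8 CPM with DOX, a log2 fold change of -0.30 (edgeR adjusted p = 0.053). MYBL2 was at 48.8, 55.7 and 48.6 CPM with vehicle and 36.3, 47.4 and 43.4 CPM with DOX, a log2 fold change of -0.27 (edgeR adjusted p = 0.083). The DOX libraries of E2F8 and MYBL2 lay below all vehicle libraries although neither passed the test. Both passed with no filter on low counts and with 1 fit over 12 libraries (adjusted p = 0.048 and 0.027 for E2F8, 0.047 and 0.020 for MYBL2), and E2F8 also with library totals and with counts divided by counts per molecule (adjusted p = 0.037 and 0.029). Without HSC3 DOX 1, the library with the most counts per molecule, E2F7 (-0.20, edgeR adjusted p = 0.013) and E2F8 (-0.41, edgeR adjusted p = 0.0011) were called lower, and 5 members in all. Without HSC3 DOX 2, MYBL2 was called (-0.36, edgeR adjusted p = 0.031).

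**Figure D4:**
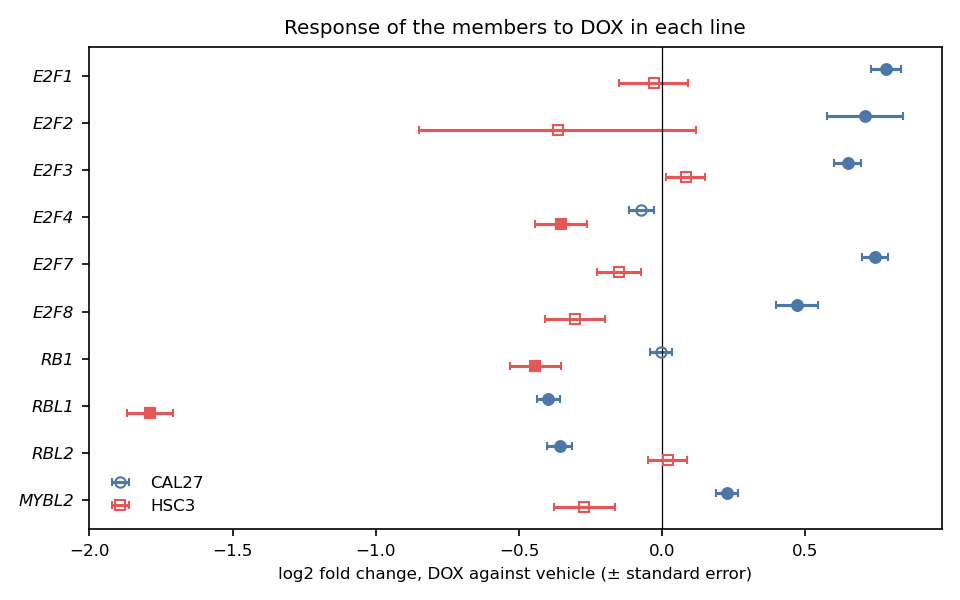
Log2 fold change of each gene between DOX and vehicle libraries, with its standard error, in CAL27 (circles) and HSC3 (squares); filled symbols passed the test at an adjusted p of 0.05. The CAL27 symbol lies to the right of the HSC3 symbol for 9 genes and to the left for RBL2.

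The response to DOX itself differed between the lines for 8 of the 10 members. In a single fit over 12 libraries, the interaction of line and DOX (HSC3 response minus CAL27 response) passed for 7 members with a lower and 1 with a higher response in HSC3, among 12.3% lower and 8.25% higher of all 20694 genes tested. RBL1 alone passed with a difference above a fold of 2, as 5.21% of genes did. The median difference was -0.67 for the members and -0.022 for all genes. By size, the difference was -1.39 ± 0.088 for RBL1 (edgeR adjusted p = 7.55e-08), -0.89 ± 0.099 for E2F7 (adjusted p = 1.47e-05), -0.81 ± 0.13 for E2F1 (adjusted p = 3.49e-04) and -0.77 ± 0.14 for E2F8 (adjusted p = 8.79e-04). It was -0.56 for E2F3, -0.50 for MYBL2 and -0.44 for RB1, with adjusted p of 1.14e-04, 0.0061 and 0.0097. RBL2 differed in the opposite direction, by 0.38 ± 0.077 (edgeR adjusted p = 0.0023). For E2F4 the difference was -0.28 (edgeR adjusted p = 0.074) and for E2F2 -1.07 (edgeR adjusted p = 0.12). The latter was called, at -1.38 and -1.42, without HSC3 vehicle 3 or HSC3 DOX 2, and the former, at -0.34, without HSC3 DOX 3. The targeted gene differed between the lines as well. MUC1 was 31.7-fold lower in HSC3 than in CAL27 vehicle libraries (edgeR adjusted p = 4.57e-14). Its response in HSC3 minus that in CAL27 was 1.36 (edgeR adjusted p = 0.0010), a smaller decrease in HSC3. In the HSC3 DOX libraries the MUC1 counts stand for only 3.09, 5.31 and 1.73 molecules, so the size of its decrease there is imprecise. The part of MUC1 in the differences of the members was not tested. Counts per molecule went with treatment in HSC3 and cannot be told apart from DOX in these differences.

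The genes on both sides of the family in its pathway were counted from lists of its kinases, partners and known targets. The counts can be read against the shares over all genes tested, 22.6% higher and 21.8% lower in CAL27 and 13.0% higher and 15.4% lower in HSC3. Genes are named from those called whose average log2 CPM reached 3. Upstream, of 19 cyclins, kinases, kinase inhibitors and regulators that act on the pocket proteins, 13 rose and none fell in CAL27, with a median log2 fold change of 0.21. The D-type cyclins CCND1 (1.39 ± 0.049) and CCND2 (1.38 ± 0.063), which start RB1 phosphorylation, rose most among the well-measured genes of this list in CAL27. In HSC3, 7 of the 19 rose and 4 fell, with a median of -0.046. The 21.1% of this list that fell in HSC3 is near the share over all genes. CDKN2B, the p15 inhibitor of CDK4 and CDK6, rose by 0.77 ± 0.074 and CCND1 by 0.55 ± 0.058, while CCNE2, a cyclin E, fell by 0.55 on the log2 scale and its partner kinase CDK2 fell by 0.47.

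Of 11 partners and relatives of the family, 5 rose and 1 fell in CAL27 and none rose and 3 fell in HSC3. The E2F factors E2F5 and E2F6, which are outside the members followed here, are counted among these 11. FOXM1, which follows MYBL2 on mitotic promoters, rose by 0.39 ± 0.049 in CAL27. The dimer partner of the E2Fs TFDP1 rose by 0.38 ± 0.038 and its relative TFDP2 fell by 0.18 on the log2 scale. In HSC3 the MuvB subunit LIN54 fell by 0.48 and CCNF, the cyclin F that marks E2Fs for destruction, fell by 0.35 on the log2 scale. The median log2 fold change of these 11 genes was 0.14 in CAL27 and -0.066 in HSC3.

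Downstream, of 42 G1/S genes, which E2Fs bind, 34 rose and none fell in CAL27 (median log2 fold change 0.32), and none rose and 29 fell in HSC3 (median -0.42). The other 8 in CAL27 and 13 in HSC3 did not pass the test. CDC25A (1.29 ± 0.060), the phosphatase that activates CDK2, and CCNE2 (0.74 ± 0.065) led in CAL27. CLSPN (-1.16 ± 0.073), the claspin of the replication checkpoint, and HELLS (-0.94 ± 0.070), a chromatin remodeller, had the largest decreases in HSC3 among genes above that level. CCNE1, below it at 1.57 to 1.68 CPM with vehicle and 0.40 to 0.83 CPM with DOX, fell by 1.47 on the log2 scale (SE 0.33, edgeR adjusted p = 0.0062) and is named after its values were seen. Of 36 G2/M genes, to which MYBL2 and FOXM1 are recruited, 23 rose and 2 fell in CAL27 (median 0.19), and none rose and 20 fell in HSC3 (median -0.27), with 11 and 16 not passing. ANLN (0.65 ± 0.040) and KIF23 (0.52 ± 0.036), both needed for cytokinesis, led in CAL27, where CDC25B (-0.37 ± 0.045) and CDC25C (-0.22 ± 0.070) were the 2 that fell. The spindle motor KIF11 (-0.62 ± 0.080) and GTSE1 (-0.53 ± 0.094) led in HSC3. The interaction test was passed by 40 of 42 G1/S genes and 29 of 36 G2/M genes, all with the lower response in HSC3, against 12.3% of all genes. These lists overlap in part and were drawn up with results of these libraries known, so their counts are no independent evidence of a direction.

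**Figure D5:**
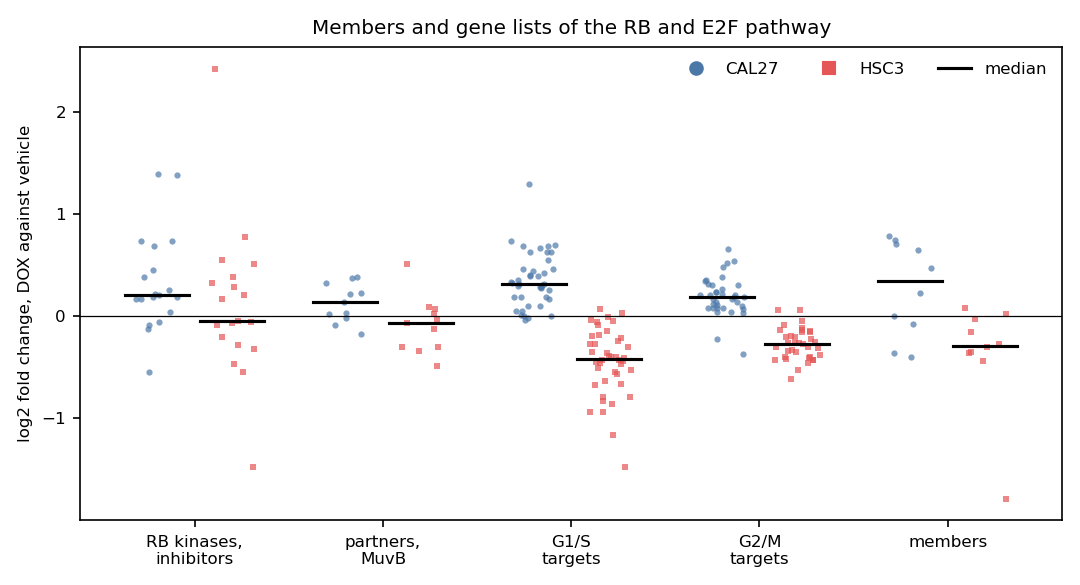
Log2 fold change between DOX and vehicle libraries for each gene of 4 pathway lists and the 10 members, in CAL27 (circles) and HSC3 (squares), with the median of each list as a black bar. The medians of the G1/S targets lie at 0.32 in CAL27 and -0.42 in HSC3, and those of the G2/M targets at 0.19 and -0.27.

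Among the 4 members with an E2F word in their windows, the responses differed. With DOX the 3 activators rose in CAL27 while RBL1 fell, and in HSC3 RBL1 fell while the activators did not pass the test. Over all genes with a RefSeq window, 34.4% of the 787 tested genes with an E2F word were higher and 19.6% lower in CAL27. The shares were 26.8% and 24.5% of the 12820 genes with any window, which include the 787. In HSC3, 22.5% of 764 genes with a word were lower and 11.8% higher, against 17.6% and 15.5% of 12140. The median log2 fold changes of the genes with a word were small, at 0.039 in CAL27 and -0.048 in HSC3.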

How the data were processed

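Total RNA was isolated with Trizol and libraries were prepared with the TruSeq Stranded mRNA kit. The submitters' processing notes name FastQC 0.11.9, STAR 2.7.9a, Subread 2.0.1, featureCounts and the build GRCh38. The authors deposited whole-number counts per gene symbol, not normalized, in 1 table per line. The annotation, the strand setting and the treatment of duplicate reads are not given in the sources used here. In the CAL27 table the DOX columns are numbered 4 to 6 and the samples 1 to 3, so these columns were assigned to the group only. No 2 replicates held the same values, and each counted as 1.

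Counts were fitted in R 4.3.3 with edgeR 4.0.16 (TMM normalization; genes kept by filterByExpr at min.count 10 and min.total.count 15; robust glmQLFit and two-sided glmQLFTest). P-values were adjusted by Benjamini-Hochberg over all genes tested, and adjusted p under 0.05 was called. Each line was fitted alone, the baseline over 6 vehicle libraries and the interaction over 12. A single gene in 3 against 3 libraries could not go below p = 0.1 in an exact permutation test. Intervals are 95%. The counts per molecule of each library were those at which the number of genes with no count in it, given their molecules over the 3 libraries of its group, met the number observed. Both were tested on simulated data. Alternatives were DESeq2 1.42.0 and its size factors, library totals, no filter, a fold of 2, counts divided by counts per molecule, 1 fit over 12 libraries, a replicate block and leaving out each library. Exon lengths and positions come from GENCODE v44 (GRCh38). All 10 members are named. Of each pathway list, the 2 called genes with the largest log2 fold change in each direction and a mean log2 CPM of at least 3 are candidates for naming. Likeness was taken for E2F1, MYBL2 and RBL2. The members and lists were chosen with earlier results of these data known.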

Additional observations from a re-analysis of the deposited data

Results flagged for a closer look

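The response to DOX differed between the lines for 8 of the 10 genes by the interaction test (edgeR quasi-likelihood over 12 libraries, Benjamini-Hochberg adjusted over all genes), which 12.3% of all 20694 genes passed with a lower and 8.25% with a higher response in HSC3. The log2 fold change in HSC3 minus that in CAL27 was -0.81 for E2F1, -0.56 for E2F3, -0.89 for E2F7, -0.77 for E2F8, -0.44 for RB1, -1.39 for RBL1, 0.38 for RBL2 and -0.50 for MYBL2. E2F1, E2F3, E2F7, E2F8 and MYBL2 rose in CAL27 and did not pass the test in HSC3. RBL1 fell in both lines, by 0.40 in CAL27 and by 1.79 in HSC3 on the log2 scale. RBL2 fell in CAL27 only and RB1 in HSC3 only by their own tests, and for both genes the difference itself passed. The targeted gene MUC1 differed as well, by 1.36, on few molecules in HSC3.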

How the results depend on the processing

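Of 540 values of the members under alternative settings or with 1 library left out, 507 kept their direction and side of the threshold, 14 newly passed it, 8 no longer did and 11 changed sign. For RB1 in CAL27 the value turned to 0.0059 with no filter, and ran from -0.039 to 0.019 with 1 library left out (above 0 without vehicle 1 or DOX 5). In HSC3, E2F1 ran from -0.12 to 0.051 with 1 library left out (0.023 without vehicle 2, 0.051 without DOX 1), and RBL2, which ran from -0.023 to 0.053 with 1 library left out, turned negative without vehicle 2 and to -0.0065 with library totals. None of these values was called. At baseline, library totals gave -0.20 for E2F4 (adjusted p = 0.0035), -0.12 for RBL1 and -0.24 for RBL2 (adjusted p = 3.94e-04), and counts per molecule gave -0.0061 for RBL2. Requiring a fold of 2 left 0 members called in CAL27, 1 in HSC3, 1 in the interaction and 4 at baseline. In HSC3, 5 members rather than 3 were called with no filter and with 1 fit over 12 libraries, which added E2F8 and MYBL2 (library totals and counts per molecule added E2F8 alone, at -0.33 and -0.32), and 2 to 5 with 1 library left out, the highest without DOX 1. Beyond its own construction (more genes or libraries in the fit), the cause of these shifts was not tested. With the replicate block, 3 members were called in HSC3. Same-numbered HSC3 vehicle and DOX libraries deviated together with correlations of -0.20, 0.34 and -0.34 over 9409 genes, which shows no pairing by number. The highest correlation, 0.48, was between vehicle 3 and DOX 1, which had the most counts per molecule in their groups. Whether same-numbered cultures were set up together cannot be told from these values. No paired analysis was possible in CAL27 because its DOX columns carry other numbers than its vehicle columns. Depth in molecules limits E2F2 and the targeted gene MUC1 in HSC3.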

Other observations

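Genes whose levels ran most closely with 3 of the members were looked up as a description. Over 12 libraries, with log2 CPM centred within each line, the highest Pearson correlations among 8738 genes were FAM171A1 (0.98), XPO6 (0.98) and FEN1 (0.98) for E2F1. For MYBL2 they were CHPF2 (0.98), IMPDH1 (0.98) and PKMYT1 (0.98), and for RBL2 SUSD6 (0.98), ATP9A (0.98) and PARP12 (0.97). The 12 points share their treatment groups, so genes with a member's DOX response in each line correlate by that alone. This holds also where the response differs between the lines, as it did for these 3 members. FEN1, a flap endonuclease of DNA replication, is itself among the G1/S genes counted above, and PKMYT1 is a kinase that restrains CDK1.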
